A study of Mus musculus with 23 samples.

Results

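MBD-seq windows in the loci of 3 genes of cortical plasticity, Bdnf, Reln, and Gad1, were compared by strain and by CORT+DFP treatment in the prefrontal cortex of 23 mice. The members were all 150 bp windows with values inside chr2:109670000-109732000 (Bdnf), chr5:21880000-22350000 (Reln), and chr2:70550000-70607000 (Gad1) on GRCm38. There were 32 such windows of 210191, with 4 at Bdnf, 28 at Reln, and 0 at Gad1. In MBD-seq, sheared DNA is captured on MBD2, a protein that binds methylated CpGs, and the captured DNA is sequenced, so a window needs both CpGs and methylation to collect reads. The values are log2 RPKM (reads per kilobase of window, scaled to the size of the library), and a difference of 1 is a 2-fold difference.

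The mice were of the inbred strains C57BL/6J (B6) and DBA/2J (D2). CORT+DFP mice had corticosterone (CORT) at 20 mg% in the drinking water for 7 days, then an i.p. injection of 4.0 mg per kg of diisopropyl fluorophosphate (DFP), an organophosphate used in place of sarin, and then further CORT every other week. Control mice were kept on the same schedule with plain drinking water and a saline injection. There were 5 B6 control mice (2 females and 3 males, all aged 145 days), 6 B6 CORT+DFP mice (3 of each sex, 145 to 226 days), 6 D2 control mice (3 of each sex, 147 to 196 days), and 6 D2 CORT+DFP mice (3 of each sex, 147 to 196 days). All were intact animals with no transgene named in the labels, and each library was from 1 mouse. The sample names fall into 3 sets. Set 1 held 3 B6 CORT+DFP, 2 D2 CORT+DFP, and 3 D2 control mice, set 2 held the other 8 B6 mice, and set 3 the other 7 D2 mice, so strain can be compared within a set only in set 1. Between 9776537 and 18428398 reads per mouse lay in windows, with a median of 41 reads per window and mouse. The X chromosome level matched the labelled sex in all 23 mice. The libraries hold DNA of a whole tissue, so a difference in the mix of cells and a difference in methylation within cells cannot be told apart, and no cell type marker can be read from them. Reads of both strains were aligned to the C57BL/6J assembly. Between strains, a difference in how D2 reads align therefore cannot be told apart from a difference in methylation either.

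BDNF is a secreted neurotrophin that acts through the receptor TrkB (the gene Ntrk2) to support neurons and strengthen synapses, and its gene has many alternative first exons that are spliced to 1 shared coding exon. Reelin, the product of Reln, is a large extracellular glycoprotein that guides the layering of the developing cortex through the receptors encoded by Vldlr and Lrp8 and the adaptor Dab1, and is made by interneurons in the adult cortex. Gad1 encodes GAD67, an enzyme that makes the inhibitory transmitter GABA from glutamate. CpG methylation of the promoters of these genes has been studied widely in stress and psychiatric research.

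No promoter at a GENCODE transcript start of the 3 genes held a window (a further RefSeq start of Bdnf is treated below). A promoter was taken as 1000 bp before to 500 bp after any GENCODE transcript start, of which Bdnf has 9, Reln 10, and Gad1 7, and 0 windows lay there. The count was also 0 for 250 bp before to 50 bp after a start and for 2000 bp on either side. Such a lack was common, since 82.6% of 21728 protein-coding genes had no promoter window. A window with values required CpGs and more than 1 CPM (a read count scaled to the size of the library) in at least 2 libraries, so an absent window says that few fragments were captured there in these libraries, and it gives no methylation level. Among the RefSeq promoters of 300 bp (250 bp before and 50 bp after a start, GRCm38.p6), 2.90% of 32619 held a window. The share was 7.21% of promoters with 10 to 19 CpGs and 0.834% of those with 30 or more. The Reln promoter holds 47 CpGs in its 300 bp, a number that 1.45% of promoters reach, the Gad1 promoter holds 21, which 24.98% reach, and the promoter of the outermost Bdnf start holds 11, which 41.7% reach. The upstream parts of these promoters are shown with each CG (the motif searched, which reads the same on both strands) in capitals. They are shown because no window of the grid in them passed the filter. The RefSeq start of the Gad1 promoter, at position 70562129, lies inside the GENCODE gene. Of that promoter only the part before the first annotated exon within it is shown. At least 1 CG is in 94.7% of the 32619 promoters.
Reln promoter, chr5:22344706-22344955, minus strand, 37 CpGs: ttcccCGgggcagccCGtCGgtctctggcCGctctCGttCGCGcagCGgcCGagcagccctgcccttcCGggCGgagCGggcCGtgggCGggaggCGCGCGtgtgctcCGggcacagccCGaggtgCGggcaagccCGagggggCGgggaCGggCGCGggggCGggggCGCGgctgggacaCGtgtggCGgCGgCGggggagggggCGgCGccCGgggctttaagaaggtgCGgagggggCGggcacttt
Gad1 promoter, chr2:70561879-70562041, plus strand, 4 CpGs, cut short before the first exon: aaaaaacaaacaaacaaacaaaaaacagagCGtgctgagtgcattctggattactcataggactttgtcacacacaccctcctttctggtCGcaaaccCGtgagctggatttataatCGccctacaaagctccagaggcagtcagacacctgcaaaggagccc
Bdnf promoter of the outermost start, chr2:109674450-109674699, plus strand, 9 CpGs: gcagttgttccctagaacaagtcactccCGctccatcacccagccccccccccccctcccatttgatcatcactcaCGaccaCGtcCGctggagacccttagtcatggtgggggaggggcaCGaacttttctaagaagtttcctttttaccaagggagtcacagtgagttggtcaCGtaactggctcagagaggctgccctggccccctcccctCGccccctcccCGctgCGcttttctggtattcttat

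Gad1 had no window anywhere in its locus. The gene spans chr2:70553072-70602014 (plus strand, ENSMUSG00000070880.10), and 0 of 379 positions of the window grid in the locus had values. The nearest window before it was 12122 bp from its start, and the nearest after it 86687 bp from its end. No strain or treatment comparison could therefore be made for Gad1. Of 2073 protein-coding genes within 1.25-fold of its length, 32.9% had no window either, and of all 21755 protein-coding genes 48.3% had none.

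**Figure D1:**
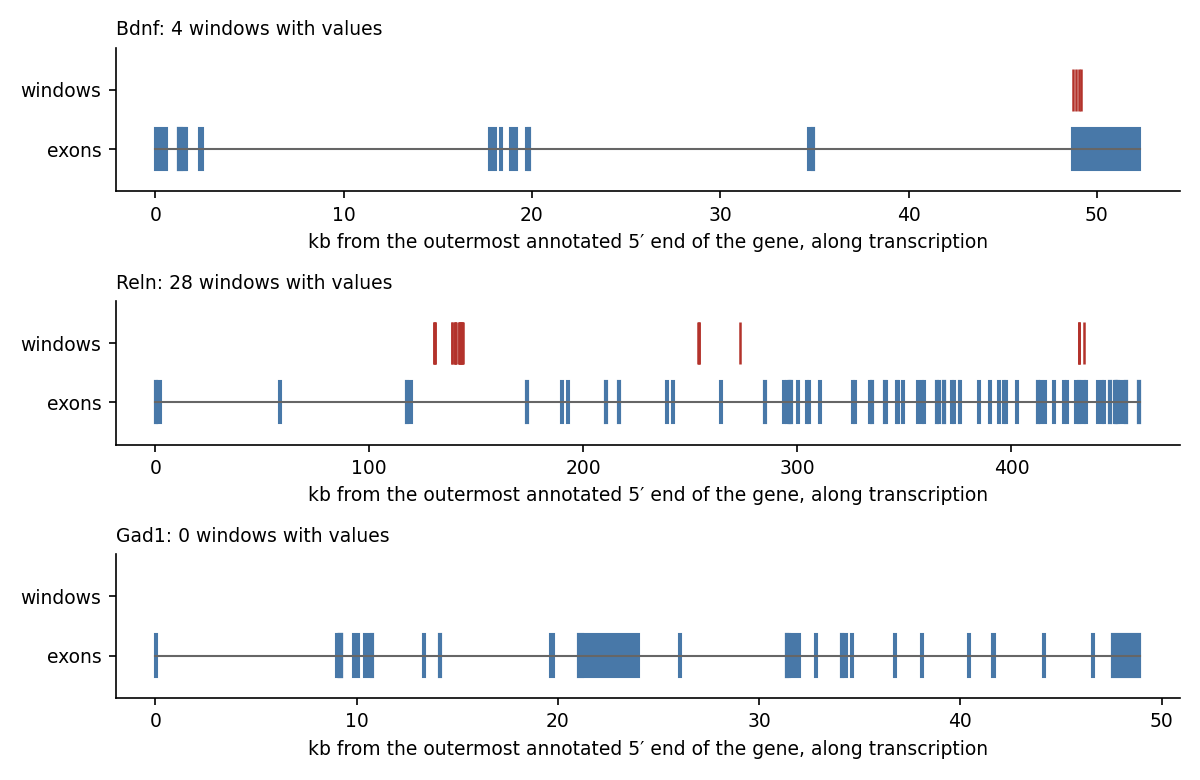
Map of the Bdnf, Reln, and Gad1 genes in kb along transcription, with the exons of all transcripts as blocks on the gene line and the windows with values as ticks above. The 4 Bdnf windows lie in its last exon, the 28 Reln windows in 5 groups of the gene body, and Gad1 has 0 windows.

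The 4 Bdnf windows were neighbours, chr2:109723351-109723950, in the last exon, which holds the protein-coding sequence. Bdnf (ENSMUSG00000048482.14) spans chr2:109674700-109727007 on the plus strand, and 4 of 412 grid positions in its locus had values. The windows began 52 bp before the start codon of the shared coding exon, and they held 5, 9, 7, and 8 CpGs. Their coding sequence is shown because these are the only windows of the Bdnf locus that passed the filter, with CG in capitals and sequence from the GENCODE transcript Bdnf-201 (plus strand).
Bdnf 48.7 kb window, chr2:109723403-109723500: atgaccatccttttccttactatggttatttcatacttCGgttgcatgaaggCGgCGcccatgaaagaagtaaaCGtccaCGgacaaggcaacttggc
Bdnf 48.9 kb window, chr2:109723501-109723650: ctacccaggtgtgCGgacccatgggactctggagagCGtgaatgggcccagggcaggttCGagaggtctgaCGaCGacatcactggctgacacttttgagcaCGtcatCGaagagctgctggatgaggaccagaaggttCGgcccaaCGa
Bdnf 49.0 kb window, chr2:109723651-109723800: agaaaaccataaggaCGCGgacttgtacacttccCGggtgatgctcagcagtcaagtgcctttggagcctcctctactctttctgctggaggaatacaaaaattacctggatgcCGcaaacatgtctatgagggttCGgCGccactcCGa
Bdnf 49.2 kb window, chr2:109723801-109723950: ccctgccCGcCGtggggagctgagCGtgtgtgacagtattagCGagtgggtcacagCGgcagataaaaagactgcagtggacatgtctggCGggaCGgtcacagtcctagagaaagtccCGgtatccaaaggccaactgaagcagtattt
Here and below a window is called by the distance of its centre from the outermost annotated 5′ end of its gene. RefSeq lists 1 more Bdnf start, at position 109722921, that GENCODE lacks. The first window lies 430 bp after it. Counting that start, a choice made after seeing the data, would make it the only promoter window of the 3 genes by the definition ending 500 bp after a start. Counting 2000 bp on either side of that start would take in the other Bdnf windows as well.

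Bdnf coding-exon levels overlapped between the 2 strains and between the 2 treatments. In the 49.0 kb window, the highest of the 4, the B6 control mice were at 4.52, 4.62, 4.67, 4.83, and 4.84 log2 RPKM. The 6 B6 CORT+DFP mice were between 4.18 and 4.91 with a median of 4.76. The D2 control mice were between 4.48 and 4.87 with a median of 4.68, and the D2 CORT+DFP mice between 4.07 and 4.93 with a median of 4.64. All 4 groups overlapped there. The mean of the 4 windows was 4.48 ± 0.14 (SD, n = 5) in B6 control, 4.43 ± 0.19 (SD, n = 6) in B6 CORT+DFP, 4.37 ± 0.24 (SD, n = 6) in D2 control, and 4.36 ± 0.19 (SD, n = 6) in D2 CORT+DFP mice. The lowest of the 4 was the 48.7 kb window, at 3.99 ± 0.29 in the B6 mice (SD, n = 11) and 3.85 ± 0.34 in the D2 mice (SD, n = 12).

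The strain differences at Bdnf, D2 minus B6, were between -0.13 and -0.03 on the log2 scale, from a limma regression on strain, treatment, their interaction, sex, and age fitted to all 210191 windows. None of the 4 was called at a Benjamini-Hochberg adjusted p under 0.05 or at an unadjusted p of 0.05 or less, while 33.9% of all windows were called at the first threshold and 39.7% at the second. The smallest adjusted p was 0.41, and the widest 95% interval was -0.34 to 0.08, for the 48.7 kb window. For CORT+DFP the fitted differences were 0.10 to 0.16 in B6 and -0.14 to 0.10 in D2, and the smallest unadjusted p over both strains was 0.27 (limma). With neither age nor sex fitted the sign in B6 was the opposite, the CORT+DFP mean minus the control mean being -0.13 to -0.0072 in the 4 windows. Within set 2, where both B6 groups were aged 145 days, the means were higher with CORT+DFP in all 4, by 0.04 to 0.17. In the 49.0 kb window the B6 interval ran from -0.15 to 0.46 and the D2 interval from -0.39 to 0.12. Over the 4 windows the intervals leave room for differences of up to 0.51 on the log2 scale at this number of mice. Residual SDs were 0.56 to 1.00 times the SD that counting reads alone gives, so the spread was no wider than that of counting.

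Reln (ENSMUSG00000042453.14, chr5:21884454-22344702, minus strand) had 28 windows of 3133 grid positions in its locus. The median among 239 protein-coding genes within 1.25-fold of its length was 14. The windows formed 5 groups along the gene, counted in the transcript Reln-207. In order of transcription, 4 windows lay 130.2 to 130.7 kb from the 5′ end and 16 windows 138.5 to 143.6 kb from it, all 20 in intron 3. A further 3 windows in intron 10 lay 253.7 to 254.0 kb away, 1 in intron 11 at 273.2 kb, and 4 in exons 54 to 56 of 65 at 431.4 to 433.8 kb. The exonic group also overlaps Gm10475, a gene annotated on the opposite strand, and MBD-seq reads cannot be assigned to a strand. One exonic window lay wholly in exon 54, and its sequence is shown as the reelin coding DNA that was captured (minus strand, GENCODE Reln-207, CG in capitals).
Reln 431.4 kb window, chr5:21913201-21913350, 4 CpGs: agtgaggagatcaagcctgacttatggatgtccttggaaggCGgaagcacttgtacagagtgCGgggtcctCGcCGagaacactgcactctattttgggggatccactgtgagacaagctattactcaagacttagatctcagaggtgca
The intronic windows are given by position only.

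Reln levels ranged from 3.29 log2 RPKM as a mean over the 23 mice in the 143.6 kb window to 5.45 in the 142.2 kb window, both in intron 3. These are the 3.75th and 98.4th percentiles of all windows. Across the 28 windows, mean level and CpG number had a Pearson r of 0.59 in B6 and 0.06 in D2. Without the 5 windows that were lower in D2 by more than 0.5 (below), r was 0.63 in B6 and 0.56 in D2 over 23 windows. These are descriptions across windows of the same libraries, and adjacent windows share fragments. After the fitted terms were removed, 22 pairs of adjacent windows had a median r of 0.74 over the 23 mice, so neighbouring windows are not separate evidence.

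The strains differed in intron 3 of Reln. At both ends of the 16-window group D2 mice were lower than B6 mice, and in the middle of it some windows were slightly higher in D2. In the 143.6 kb window (chr5:22201051-22201200, 8 CpGs), the 11 B6 mice were between 3.98 and 4.71 log2 RPKM with a median of 4.44. The 12 D2 mice were between 1.62 and 2.998 with a median of 2.16. The strains did not overlap in this window. The D2 mice had 4 to 15 reads there and the B6 mice 21 to 62, and scaled to library size D2 had 19.1% of the level of B6. More than 1 CPM was reached by 11 of 11 B6 mice and 1 of 12 D2 mice in this window, so it met the filter on low values through B6 and its difference in direction is fixed by that filter. The other 31 windows of the 3 loci met it in each strain alone. The fitted difference of -2.13 ± 0.14 (SE) is therefore given as a description, with no test. D2 reads were aligned to the B6 assembly, and D2 variants in this window and its neighbours were not examined.

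The adjacent 143.4 kb window (chr5:22201201-22201350, 7 CpGs) had the widest strain difference at Reln. B6 mice were between 4.39 and 5.07 with a median of 4.73, and D2 mice between 1.61 and 3.18 with a median of 2.44. Again no D2 mouse reached the lowest B6 mouse. The D2 mice had 3 to 20 reads there and the B6 mice 28 to 78. More than 1 CPM was reached by 11 of 11 B6 mice and 3 of 12 D2 mice, so this window was also near the filter on low values in D2. The difference was -2.18 ± 0.15 (SE, adjusted p = 6.06e-14, limma), and 4.00% of all windows had a D2 minus B6 difference as low or lower. A permutation of strain among the 23 mice gave p = 2e-05, the smallest that 100000 resamples can give (two-sided). In the next window, at 143.3 kb (chr5:22201351-22201500, 11 CpGs), the strains overlapped by 1 or more mice, with B6 at 4.29 to 5.07 and D2 at 3.24 to 4.33. The difference there was -0.90 ± 0.11 (SE, adjusted p = 3.16e-08, limma). It was -0.22 in the 143.1 kb window and -0.04 in the 143.0 kb window, neither of them called, so the strain difference narrowed from window to window over less than 1 kb.

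At the other end of the group, 5 kb nearer to the 5′ end, the same order was seen. In the 138.5 kb window (chr5:22206151-22206300, 10 CpGs), B6 mice were between 4.50 and 5.15 with a median of 4.84 and D2 mice between 3.25 and 3.92 with a median of 3.68, with no overlap. The difference was -1.17 ± 0.09 (SE, adjusted p = 1.31e-12, limma), and D2 had 42.4% of the scaled reads of B6. It was -0.70 ± 0.11 in the 138.6 kb window (adjusted p = 2e-06), where B6 mice were at 4.28 to 4.95 and D2 mice at 3.39 to 4.39. Towards the middle of the group the difference was -0.33 at 140.0 kb and -0.28 at 140.1 kb, both called with an adjusted p of 0.015. These calls were not both kept with set fitted in place of age.

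In the middle of the group, D2 mice were higher in 2 windows, by 0.35 ± 0.09 at 142.1 kb (chr5:22202551-22202700, adjusted p = 0.0035) and by 0.32 ± 0.12 at 141.9 kb (chr5:22202701-22202850, adjusted p = 0.033). The ranges overlapped at 142.1 kb, with B6 at 4.37 to 5.33 and D2 at 4.88 to 5.72. One window of intron 10, at 254.0 kb (chr5:22090651-22090800, 4 CpGs), was also higher in D2, by 0.34 ± 0.09 (adjusted p = 0.0019). With set fitted in place of age, 5 of the 10 strain calls at Reln were kept, and most of the calls higher in D2 were lost. Over the 16 windows of the group the mean per mouse was 4.75 ± 0.12 for the B6 mice (SD, n = 11) and 4.29 ± 0.05 for the D2 mice (SD, n = 12). That mean joins windows that differed in opposite directions.

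**Figure D2:**
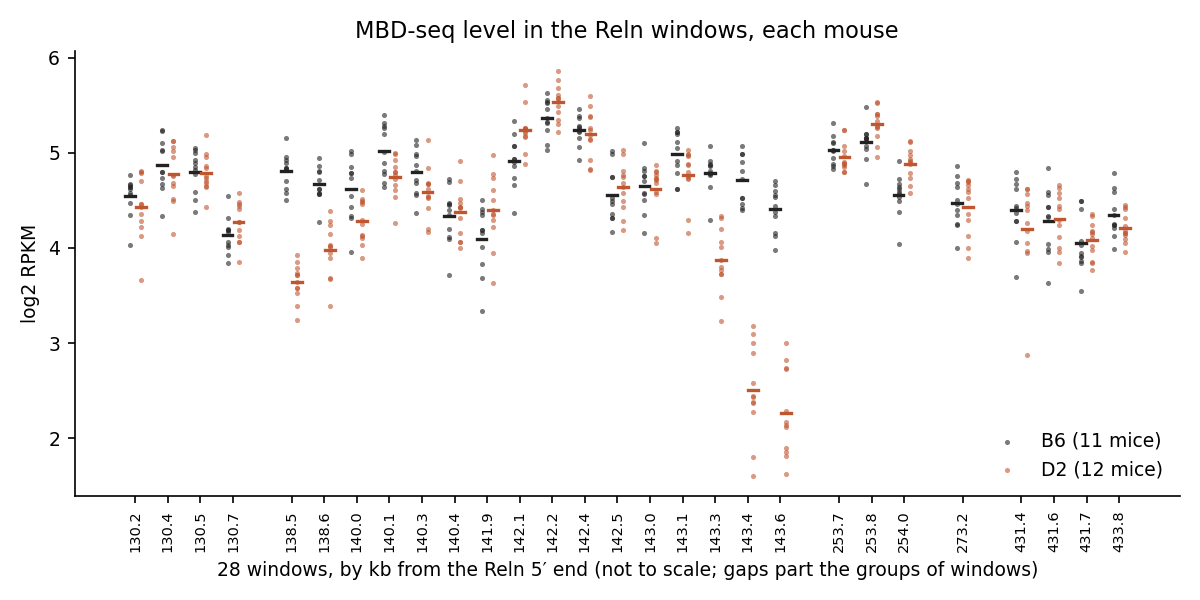
Level of each of the 28 Reln windows in log2 RPKM, in order of distance in kb from the 5′ end of the gene, with a dot for each of 11 B6 and 12 D2 mice and a bar for the mean of the strain. D2 mice lie below all B6 mice at 138.5, 143.4, and 143.6 kb, and the strains overlap in the other windows.

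In all, 10 of 28 Reln windows were called between strains, 7 lower and 3 higher in D2. Of all windows 33.9% were called, 18.1% lower and 15.8% higher, so the count at Reln was near that of the genome at large. The 143.6 kb window is among the 7. Strain ranges did not overlap in 3 of 28 Reln windows, the 143.6 kb window among them, and in 12.9% of all windows. The median difference was -0.05 at Reln and 0.01 over all windows. The exonic windows (431.4 to 433.8 kb), the window of intron 11, and the 4 windows at 130.2 to 130.7 kb had no strain call, with differences of -0.18 to 0.14. Set 1 held both strains, but its 3 B6 mice were all CORT+DFP mice aged 218 to 226 days. Its D2 mice were 2 CORT+DFP and 3 control mice aged 196 days, so strain is joined there to treatment and age. In set 1, D2 minus B6 was -2.02 in the 143.4 kb window, -0.71 in the 138.6 kb window, and -1.20 in the 138.5 kb window. The strains did not overlap in any of these 3, and the exact permutation p was 0.036 in each, the smallest that 5 against 3 mice allow (two-sided). The 143.3 kb window differed by -0.83 in set 1 (exact permutation p = 0.071, two-sided). The 142.1 and 254.0 kb windows were higher in D2 by 0.20 in set 1 (exact permutation p = 0.18 and 0.071). In the 141.9 kb window D2 was higher by 0.19 in set 1 (exact permutation p = 0.57), and a regression on set 1 alone with treatment and sex gave -0.35, so the direction there depended on the terms fitted. In the regression on all mice, the call of the 141.9 kb window was also lost on leaving out any 1 of 9 mice (adjusted p of 0.054 to 0.12).

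**Figure D3:**
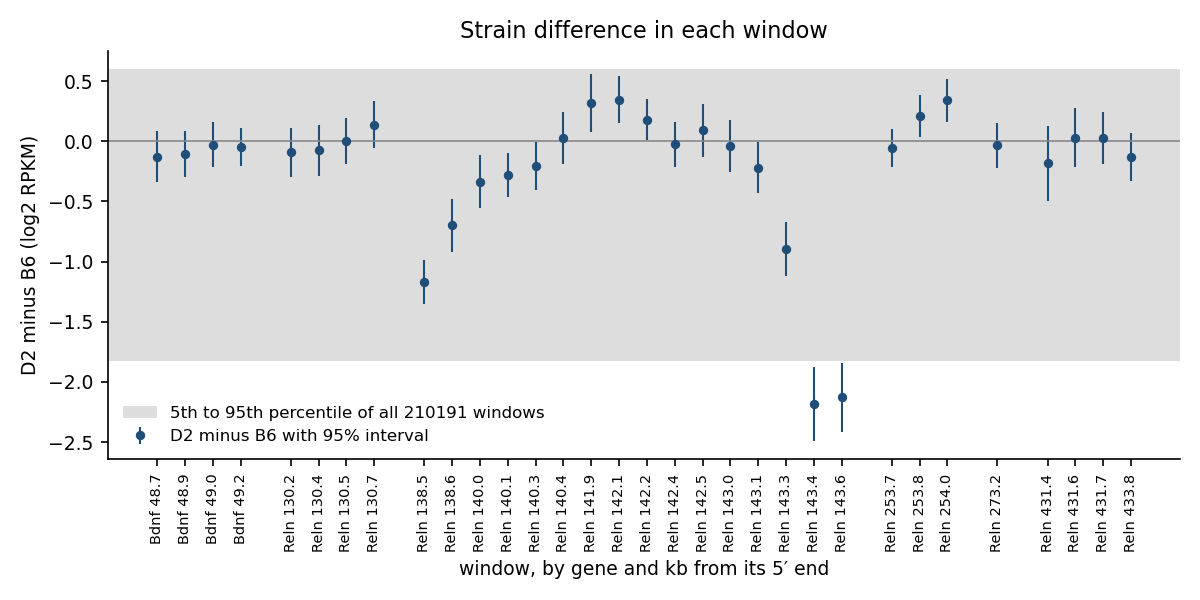
Fitted difference between strains (D2 minus B6, log2 RPKM) with its 95% interval in each of the 4 Bdnf and 28 Reln windows, in kb from the 5′ end, over a grey band from the 5th to the 95th percentile of all 210191 windows (-1.83 to 0.60). The Reln windows at 143.4 and 143.6 kb lie below the band, the difference narrows towards the middle of that group, and the Bdnf windows lie near 0.

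CORT+DFP differences at Reln ran from -0.20 to 0.37 in B6 and from -0.56 to 0.26 in D2, and none was called at an adjusted p under 0.05 in B6, in D2, or in their mean (limma), where 0, 0.00238%, and 0 of all windows were. By the unadjusted threshold of 0.05, 4 of 28 Reln windows were called in B6 and 5 in D2, against 5.79% and 5.46% of all windows, and 0 in the mean over strains against 4.11%. The 4 windows in B6 were higher with CORT+DFP (2.69% of all windows were called higher). Of the 5 in D2, 4 were lower with CORT+DFP (2.8% of all windows) and 1 was higher (2.66%). Neighbouring windows are among them, so the counts stand for fewer separate places. The count in B6 was 1 without B6 control mouse 1, 7 without B6 control mouse 2, and 2 without D2 CORT+DFP mouse 1, and 0 in the mice of sets 2 and 3 alone. The count in D2 was 1 without D2 CORT+DFP mouse 1 or 6, 2 without D2 control mouse 4, and 3 without D2 CORT+DFP mouse 2, 3, or 4 or D2 control mouse 2, 3, or 5.

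The 141.9 kb window of intron 3 (chr5:22202701-22202850, 2 CpGs) had the smallest treatment p in D2. The 6 D2 control mice were between 4.40 and 4.97 with a median of 4.67, and the 6 D2 CORT+DFP mice between 3.63 and 4.35 with a median of 4.26. The 2 groups did not overlap, as was the case in 0.156% of all windows. The fitted difference was -0.56 ± 0.16 (SE, unadjusted p = 0.0017, adjusted p = 0.72, limma), and the exact permutation p was 0.0022 (two-sided), the smallest that 6 against 6 mice allow. The difference of means was -0.83 in set 1 and -0.41 in set 3, without overlap in either (exact permutation p = 0.2 and 0.057, the smallest that these numbers of mice allow). In B6 the control mice were at 3.338, 3.84, 4.19, 4.34, and 4.37 and the CORT+DFP mice between 3.69 and 4.50 with a median of 4.17. B6 groups overlapped, with a fitted difference of 0.28 ± 0.19 (SE, unadjusted p = 0.16). The adjacent 142.1 kb window had 0.33 ± 0.15 in B6 and -0.27 ± 0.13 in D2 (unadjusted p = 0.041 and 0.049).

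In intron 10, the 253.8 kb window (chr5:22090801-22090950, 9 CpGs) had the smallest treatment p in B6. The B6 control mice were at 4.68, 4.94, 5.04, 5.14, and 5.16, and the B6 CORT+DFP mice between 5.07 and 5.48 with a median of 5.18, so the groups overlapped. The fitted difference was 0.33 ± 0.14 (SE, unadjusted p = 0.024, adjusted p = 0.85, limma), and the exact permutation p of the means was 0.035 (two-sided). Within set 2, where both B6 groups were aged 145 days, the difference was 0.26 (exact permutation p = 0.14). Without B6 CORT+DFP mouse 4 it was 0.27 (unadjusted p = 0.084) and without B6 control mouse 1 it was 0.24 (unadjusted p = 0.10). In D2 it was -0.08 ± 0.12. The neighbouring 254.0 kb window had 0.33 ± 0.14 in B6 and -0.10 ± 0.12 in D2.

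The 2 windows at 130.2 and 130.4 kb of intron 3 leaned in opposite directions in the 2 strains. At 130.2 kb (chr5:22214401-22214550, 8 CpGs) the fitted CORT+DFP difference was 0.37 ± 0.16 in B6 (unadjusted p = 0.03) and -0.31 ± 0.14 in D2 (unadjusted p = 0.031). B6 control mice were at 4.03, 4.47, 4.55, 4.64, and 4.64, B6 CORT+DFP mice between 4.35 and 4.76, D2 control mice between 4.13 and 4.81, and D2 CORT+DFP mice between 3.66 and 4.70. All groups overlapped. At 130.4 kb the differences were 0.35 ± 0.17 (unadjusted p = 0.051) and -0.35 ± 0.14 (unadjusted p = 0.022). With neither age nor sex fitted, the differences of means at 130.2 and 130.4 kb were 0.14 and 0.15 in B6 (exact permutation p = 0.32 and 0.38, two-sided). In D2 they were -0.26 and -0.31 (exact permutation p = 0.19 and 0.076, two-sided).

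The test of the difference between strains, the treatment-by-strain interaction (D2 effect minus B6 effect), was called at an unadjusted p of 0.05 or less in 6 of 28 Reln windows, and in 7.04% of all windows. All 6 were negative (3.52% of all windows were called so). They were the 141.9 and 142.1 kb windows (-0.84 ± 0.26 and -0.60 ± 0.21), the 130.2 and 130.4 kb windows (-0.68 ± 0.22 and -0.69 ± 0.23), and the 253.8 and 254.0 kb windows (-0.41 ± 0.19 and -0.43 ± 0.19). They form 3 pairs of adjacent windows. The smallest unadjusted p was 0.0029 and the adjusted p of the 6 lay between 0.65 and 0.70, so none passed the adjustment over all windows, and no window of the genome did.

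**Figure D4:**
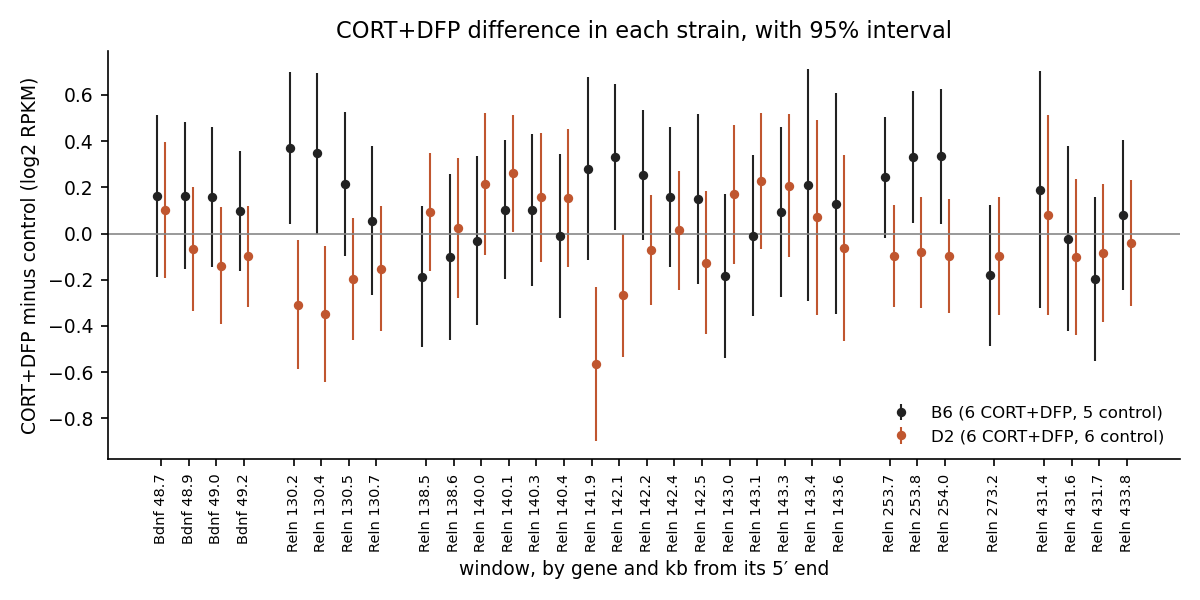
Fitted CORT+DFP minus control difference (log2 RPKM) with its 95% interval in B6 and in D2 for each of the 4 Bdnf and 28 Reln windows, in kb from the 5′ end. At 130.2, 130.4, 141.9, 142.1, 253.8, and 254.0 kb of Reln the B6 estimate is above 0 and the D2 estimate below it.

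The single window of intron 11, at 273.2 kb (chr5:22071451-22071600, 6 CpGs), stood apart in the raw B6 values. The B6 control mice were at 4.51, 4.64, 4.68, 4.75, and 4.86 and the 6 B6 CORT+DFP mice between 4.00 and 4.47 with a median of 4.30. No CORT+DFP mouse reached the lowest control mouse, as in 0.352% of all windows. The difference of means was -0.40 (exact permutation p = 0.0043, two-sided, the smallest possible with 6 against 5), and within set 2 it was -0.32 without overlap (exact permutation p = 0.036). This window was singled out after its values were seen. With age and sex fitted, the difference was -0.18 ± 0.15 (SE, unadjusted p = 0.24, limma), and without the age term it was -0.40 (unadjusted p = 0.013). The 3 oldest B6 mice, at 218 to 226 days, were all CORT+DFP mice of set 1, so age, set, and treatment cannot be told apart for them. In D2 the groups overlapped, with control mice at 4.13 to 4.69 and CORT+DFP mice at 3.90 to 4.71.

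**Figure D5:**
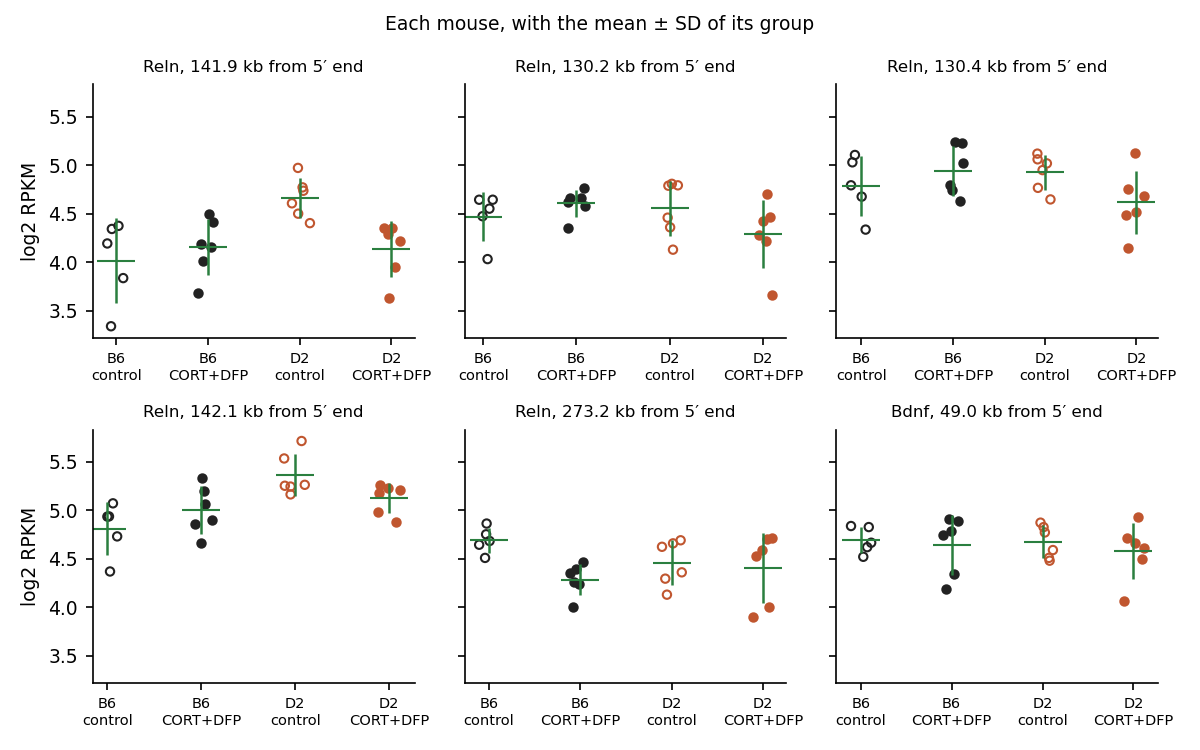
Level of each mouse in log2 RPKM, with the mean and SD of its group, in the 4 Reln windows of smallest interaction p (141.9, 130.2, 130.4, and 142.1 kb), the Reln window at 273.2 kb, and the Bdnf window at 49.0 kb, open circles for control and filled circles for CORT+DFP mice. At 141.9 kb all D2 CORT+DFP mice lie below all D2 control mice, at 273.2 kb all B6 CORT+DFP mice lie below all B6 control mice, and at Bdnf the 4 groups overlap.

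The strain difference at the ends of the intron 3 group was seen in both treatments. At 143.4 kb the B6 control mice had a mean of 4.66 ± 0.23 (SD, n = 5) and the B6 CORT+DFP mice 4.75 ± 0.29 (SD, n = 6). The D2 control mice had 2.46 ± 0.49 (SD, n = 6) and the D2 CORT+DFP mice 2.55 ± 0.52 (SD, n = 6). The CORT+DFP difference was 0.21 ± 0.25 in B6 and 0.07 ± 0.21 in D2, neither called, and the interaction was -0.14 with an interval of -0.81 to 0.53. Sex gave no call in the 32 windows at an adjusted p under 0.05 or an unadjusted p of 0.05 or less (limma), with 5.78% and 13.1% of all windows called. Those shares include windows of the X chromosome, and the 32 windows are all autosomal.

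Among the genes of the reelin pathway, Dab1, the adaptor at reelin receptors that Fyn and Src phosphorylate, had a strain call in all of its 12 windows, 9 lower and 3 higher in D2 (-2.86 to 0.45). Whether windows of this and the following lists met the filter on low values in each strain alone was not examined. Their strain calls may therefore include windows whose direction is fixed by that filter, as at 143.6 kb of Reln. The receptor genes Lrp8 (9 windows) and Vldlr (3) had 0 strain calls, as had Fyn (1), Src (5), and Rapgef1 (4), and the other 6 genes of the list (Crk, Crkl, Pafah1b1, Cdk5, Cdk5r1, and Ndel1) had no window. The pathway as a whole had 12 of 34 windows called (35.3%, against 33.9% of all windows), with a median difference of -0.06. By the unadjusted treatment thresholds, 2 of the 34 were called in B6, both lower (5.88%, against 3.1% of all windows called so), 3 in D2, all higher (8.82%, against 2.66%), and 5 in the interaction, all positive (14.7%, against 3.52%). None of these passed an adjusted p under 0.05 (limma).

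In the BDNF list, 8 of the 11 genes reported had windows, 48 in all. Strain was called in 6 (12.5%, against 33.9% of all windows), with a median difference of 0.05 over the 48. Of the 6, 4 were in Ntrk2, the TrkB receptor (20 windows, 3 higher and 1 lower in D2), and 2 in Crtc1, a CREB coactivator (9 windows, -0.92 to 0.36). The low-affinity receptor gene Ngfr (3 windows), Sort1, Ntf3, Ntrk3, Rest, and Camk2a had no strain call, and Creb1, Arc, and Plcg1 had no window. In the treatment comparisons 2 of the 48 windows were called lower in B6 (4.17%, against 3.1% of all windows), 3 higher in D2 (6.25%, against 2.66%), and 4 in the interaction, all positive (8.33%, against 3.52%), by the unadjusted threshold.

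For Gad1, the partners that could be measured were 11 of 19 genes of GABA synthesis, transport, and interneuron identity, with 84 windows. Gad2, which encodes the other GABA-making enzyme GAD65, had 1 window with a strain difference of -0.20 that was not called. Erbb4, the neuregulin receptor of interneurons, had 23 of 26 windows called, all lower in D2 (down to -3.74). How many of these met the filter on low values in D2 alone was not examined. Gphn, the gene of the scaffold gephyrin at inhibitory synapses, had 8 windows higher and 3 lower of 19, and Sox6 5 higher and 3 lower of 16. The list had 43 of 84 windows called between strains (51.2%, against 33.9% of all windows), with a median difference of -0.04, and Erbb4 alone held 23 of the 43. By the unadjusted threshold 2 windows were called in B6 (2.38%, against 5.79%), 11 in D2 (13.1%, against 5.46%), of which 5 were higher and 6 lower and 7 lay in Erbb4, and 7 in the interaction (8.33%, against 7.04%). Slc32a1, Sst, Vip, Dlx1, Dlx2, Dlx5, Dlx6, and Npas4 had no window.

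Among the genes of DNA methylation itself, Dnmt1, the maintenance methyltransferase, had 53 windows with 0 strain calls, and Dnmt3a (9), Tet1 (13), and Tet2 (2) had none either. Tet3, which oxidizes methylcytosine, had 2 of 13 called, 1 in each direction. The list had these 2 of 90 windows called (2.22%, against 33.9%), with a median difference of 0.08. By the unadjusted threshold 4 of the 90 windows were lower in B6 with CORT+DFP (4.44%, against 3.1%), 5 were higher in D2 (5.56%, against 2.66%), and 8 were called in the interaction, all positive (8.89%, against 3.52%), and 6 of these 8 were in Dnmt1.

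The mean of the 28 Reln windows was 4.64 ± 0.13 (SD, n = 5) in B6 control, 4.68 ± 0.08 (SD, n = 6) in B6 CORT+DFP, 4.42 ± 0.05 (SD, n = 6) in D2 control, and 4.39 ± 0.10 (SD, n = 6) in D2 CORT+DFP mice. The treatments overlapped in both strains. Among 5169 autosomal protein-coding genes with at least 5 windows, those whose mean followed Reln most closely over the 23 mice were Iqcm (r = 0.93), Kcnc2 (r = 0.93), and Otogl (r = 0.93), each lower in D2 on average (Kcnc2 4.57 in B6 and 3.74 in D2). For Bdnf they were Mecom (r = 0.77), Caps2 (r = 0.76), and Armc4 (r = 0.71). The median r over all these genes was -0.15 for both. These values describe likeness over mice that share libraries and strain, and were not tested.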

How the data were processed

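DNA methylation was measured by MBD-seq (MBD2 capture of sheared DNA) in prefrontal cortex from 23 mice. Strain and treatment gave 4 conditions. Reads of both strains were aligned by the authors to GRCm38, the C57BL/6J assembly, with STAR 2.5.0a, extended to 150 bp, and counted with MEDIPS over a grid of 150 bp windows. Windows without CpGs and with few reads were dropped, and windows with more than 1 CPM in at least 2 libraries kept. Log2 RPKM is the unit that the authors deposited, scaled with edgeR 3.34.1 factors and with a prior count added. D2 variants in the windows, and repeats to which reads map at several places, were not examined here. No column was without a mouse.

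Reads were recovered from the values (100% within 0.05 of a whole read after a prior of 2 reads). No pair of mice of 1 condition and sex differed by as little as counting error (smallest chi-square per window 1.18). A regression on condition, sex, and age was fitted to all 210191 windows with limma 3.58.1 in R 4.3.3, and p-values were adjusted by Benjamini-Hochberg over all windows. Strain and sex were called at an adjusted p under 0.05, and treatment and interaction at an unadjusted p of 0.05 or less with the adjusted p beside it. The 95% intervals used 30.1 degrees of freedom. For single windows, permutation tests (two-sided, scipy 1.17.1) were exact or used 100000 resamples. Each mouse is 1 sample, and mice of a group may share a litter, which the labels do not give. Gene models were from GENCODE M21 and promoters from RefSeq GRCm38.p6, in which all 3 genes matched. Promoter, exon, and intron were assigned by overlap.

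Named windows were, for each gene, those with the highest and the lowest mean, the 3 smallest strain p, and the smallest p in B6, in D2, and of the interaction, with neighbouring called windows. The genes, windows, and gene lists were chosen with earlier results of these data known. Some genes of the BDNF list are not reported here, and its counts leave them out. The regression was tested on simulated data. Alternatives were ordinary least squares, a variance trend, voom weights on the recovered reads, log2(RPKM + 1), median centring, quantile normalization, windows above the 25th percentile, autosomal windows, no age, set in place of age, sets 2 and 3 alone, other promoter definitions, and each mouse left out in turn. The strain difference between control mice was taken from the same fit of all mice. Set 1 alone, RefSeq starts, and differences within sets were added after seeing the data. Python 3.11.15, numpy 2.4.6, pandas 2.3.3, and matplotlib 3.10.9 were used.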

Additional observations from a re-analysis of the deposited data

Results flagged for a closer look

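In 6 Reln windows the CORT+DFP difference in D2 differed from that in B6 by the interaction test at an unadjusted p of 0.05 or less. The interaction was -0.84 in the 141.9 kb window, -0.68 at 130.2 kb, -0.69 at 130.4 kb, -0.60 at 142.1 kb, -0.43 at 254.0 kb, and -0.41 at 253.8 kb. None passed the adjustment over all windows in limma, with adjusted p from 0.65 to 0.70. B6 treatment is joined to age and set in 3 of 6 CORT+DFP mice, and the part of these was not tested.

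2 mice lay far from the other mice of their group by Dixon's ratio. D2 control mouse 2 had a mean of 3.72 over the 4 exonic Reln windows, where the other 5 were between 4.20 and 4.41. B6 CORT+DFP mouse 4 was at 5.48 in the 253.8 kb window, with the other 5 between 5.07 and 5.202. In 68 groups examined, these were the 2 that passed the critical value, while chance gives about 1 in 20.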

How the results depend on the processing

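The lower D2 level in the Reln windows at 138.5, 138.6, 143.3, and 143.4 kb was called in each alternative that kept them, except that the 143.3 kb window was not called in set 1 alone. The filter at the 25th percentile removed the 143.4 and 143.6 kb windows, and the 143.6 kb window, which met the filter on low values through B6 alone, is not counted as support. The number of windows called between strains was 10 and became 5 with set in place of age and 4 in set 1 alone, and was 9 to 11 with a mouse left out. Most of the calls higher in D2 were among those lost with set in place of age. For CORT+DFP in B6 the number called was 4. With no age term 0 of the 4 were still called, and 1 other window was called. The number was 0 with set in place of age, 0 in sets 2 and 3 alone, and 1 to 7 on leaving out a mouse. In D2 the 5 became 0 by quantile normalization, 1 with no age term, and 0 in sets 2 and 3 alone, with 1 to 5. The 0 of the mean over strains became 1 by ordinary least squares, variance trend, voom weights, quantile normalization, and set in place of age, and 2 with no age term, with 0 to 1. The 6 of the interaction became 3 with no age term, 5 with set in place of age, and 9 by ordinary least squares, with 4 to 8 on leaving out a mouse. In sets 2 and 3 alone 4 were called, and 3 of the 6 were among them. The 0 promoter windows became 1 with the RefSeq starts. The cause of these changes was not tested.

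The direction turned in uncalled results. The strain difference of the Bdnf 49.0 kb window was 0.0137 by median centring, 0.14 with set in place of age, and -0.0605 to 0.0114 with a mouse left out, its B6 treatment difference was -0.0611 with no age term, and the strain difference at 48.7 kb was 0.16 by quantile normalization. In set 1 alone the Reln strain difference was -0.0318 at 142.2 kb, -0.0457 at 253.8 kb, and -0.35 at 141.9 kb, the last a call in all mice. No paired analysis was possible because the labels give the mice no replicate number shared between groups. With 4 to 62 reads per mouse in the 143.6 kb window and 41 in the median window, counting error limits what a single window can show.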
